A study of Homo sapiens with 5 samples.

Results

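Cell cycle and proliferation genes were examined as a set of 42 genes, listed by symbol and all found among the 26506 genes of the deposited table. The set was divided by role into 15 genes of G1 control (cyclins, their kinases and inhibitors, RB1 and E2F factors), 12 S-phase genes and 15 mitotic genes. RNA was sequenced from H9, an established human embryonic stem cell line, in 5 libraries. B3GALT5-KO cells (genotype B3GALT5-/-, written KO) were grown in 2iLAF medium, recorded as naive, and in basal medium, recorded as primed. Wild-type (WT) cells were grown in 5iLAF, recorded as naive, in 2iLAF, recorded as primed-naive, and in basal medium, recorded as primed. All 5 libraries came from the same parental line, and the sources used here do not give how many knockout clones were used or how long cells were kept in each medium. Each group holds 1 library, so no difference below has a replicate check, an error or a p-value, and every ratio compares libraries and not conditions.

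In the cell cycle, D-type cyclins bind CDK4 and CDK6 and phosphorylate the retinoblastoma protein RB1, which releases E2F factors to transcribe genes for DNA replication. INK4 inhibitors (CDKN2A, CDKN2B, CDKN2C and CDKN2D) block CDK4 and CDK6, whereas CDKN1A, CDKN1B and CDKN1C act mainly on cyclin-CDK2 complexes. Mitotic genes are transcribed later, in G2, by complexes that include FOXM1 and MYBL2 and bind a promoter element known as CHR. Human pluripotent cells divide quickly, with a short G1 phase.

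Levels are TPM, transcript abundances that add up to the same total in each library. Differences are log2 ratios of TPM + 1, so that the ratio of a gene near 0 TPM comes out too small. Counts of higher and lower genes were taken at 2-fold, meaning a log2 ratio of 1 or more in either direction, and again at 1.5-fold. Shares over the 15761 genes that reached 1 TPM in at least 1 library give the background for each count. All 42 members passed that filter. Several patterns ran through the set. Mitotic genes were lower in KO 2iLAF, WT 5iLAF and WT 2iLAF than in both basal libraries. S-phase genes were lower in KO 2iLAF and WT 5iLAF, but near the basal level in WT 2iLAF. The INK4 members were present in KO 2iLAF and WT 5iLAF, and near 0 TPM in WT 2iLAF and in both basal libraries.

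The promoters of 6 members are shown here as examples of the letters that were searched for in each group. They are RefSeq sequences of build GRCh38.p14 from 250 bases before to 50 after the start, written along the strand of the gene, with capitals at each match. BUB1B (chr15:40160819-40161118, plus strand), CDC20 (chr1:43358731-43359030, plus strand) and CCNB2 (chr15:59104896-59105195, plus strand) are mitotic, MCM3 (chr6:52284693-52284992, minus strand) and CDC6 (chr17:40287629-40287928, plus strand) are S-phase genes, and CDKN2B (chr9:22009256-22009555, minus strand) is an INK4 inhibitor with no match.
BUB1B: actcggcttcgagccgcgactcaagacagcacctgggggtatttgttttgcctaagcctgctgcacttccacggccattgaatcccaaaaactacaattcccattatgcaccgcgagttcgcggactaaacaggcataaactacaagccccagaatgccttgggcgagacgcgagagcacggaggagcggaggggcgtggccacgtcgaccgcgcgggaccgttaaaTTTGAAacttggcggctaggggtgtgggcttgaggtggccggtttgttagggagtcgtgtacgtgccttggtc
CDC20: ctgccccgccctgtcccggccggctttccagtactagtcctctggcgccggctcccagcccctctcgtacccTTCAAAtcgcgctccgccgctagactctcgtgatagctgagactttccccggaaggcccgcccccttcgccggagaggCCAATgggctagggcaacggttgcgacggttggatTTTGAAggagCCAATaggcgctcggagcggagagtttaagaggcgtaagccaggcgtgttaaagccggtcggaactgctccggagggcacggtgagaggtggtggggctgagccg
CCNB2: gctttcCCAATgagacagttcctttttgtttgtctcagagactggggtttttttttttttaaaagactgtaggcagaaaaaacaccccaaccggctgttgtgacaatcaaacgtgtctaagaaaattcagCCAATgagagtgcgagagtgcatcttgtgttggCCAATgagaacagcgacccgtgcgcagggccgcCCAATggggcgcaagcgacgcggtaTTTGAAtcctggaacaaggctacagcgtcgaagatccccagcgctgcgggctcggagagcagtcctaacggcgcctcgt
MCM3: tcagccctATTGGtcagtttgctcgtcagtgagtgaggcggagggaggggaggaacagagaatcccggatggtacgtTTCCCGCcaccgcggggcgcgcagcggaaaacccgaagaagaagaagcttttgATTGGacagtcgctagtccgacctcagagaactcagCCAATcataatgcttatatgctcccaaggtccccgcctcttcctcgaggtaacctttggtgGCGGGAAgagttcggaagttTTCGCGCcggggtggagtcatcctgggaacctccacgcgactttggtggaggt
CDC6: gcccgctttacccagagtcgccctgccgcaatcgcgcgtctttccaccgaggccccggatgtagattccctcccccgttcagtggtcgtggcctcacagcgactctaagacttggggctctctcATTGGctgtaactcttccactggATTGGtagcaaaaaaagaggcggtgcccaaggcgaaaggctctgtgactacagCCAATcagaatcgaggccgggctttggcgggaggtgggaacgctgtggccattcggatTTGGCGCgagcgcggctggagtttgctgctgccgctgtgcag
CDKN2B: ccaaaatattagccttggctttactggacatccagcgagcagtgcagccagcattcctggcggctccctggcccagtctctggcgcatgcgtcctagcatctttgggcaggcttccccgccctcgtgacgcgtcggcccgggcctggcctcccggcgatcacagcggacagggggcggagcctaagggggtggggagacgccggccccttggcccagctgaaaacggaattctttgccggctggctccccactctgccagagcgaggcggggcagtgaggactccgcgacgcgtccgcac

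Promoters were in the RefSeq table for 33 of the 42 members, the others being CCND1, CCND2, CCNE2, CDK2, MCM4, MCM5, AURKA, BIRC5 and FOXM1. The search used E2F-type letters (any of TTCCCGC and TTCGCGC and TTGCCGC and TTGGCGC), CHR-type letters (TTTGAA or TTCGAA) and CCAAT, all on both strands. TTGGCGC on the opposite strand runs into CCAAT where a T follows it, so such a stretch counts for both. A gene with several starts was counted once if any of its windows held a match. E2F-type letters were in 10 of 10 S-phase genes, 2 of 12 mitotic genes (CDK1 and CCNB1) and 3 of 11 G1 genes (E2F1, E2F2 and CDKN2C). They were in 23.96% of the 11399 genes that reached 1 TPM and had a promoter, and in 13.0% of all 35116 windows of the table. CHR-type letters were in 9 of 12 mitotic genes, 2 of 10 S-phase genes and 0 of 11 G1 genes, against 15.7% of the same expressed genes and 16.4% of all windows. CCAAT was in 11 of 12 mitotic, 7 of 10 S-phase and 4 of 11 G1 genes, against 42.7% of expressed genes and 34.6% of all windows. CHR-type letters together with CCAAT were in 8 of 12 mitotic genes, against 6.52% of expressed genes. In the sequences above, TTTGAA began at position -23 in BUB1B, -65 in CDC20 and -29 in CCNB2, counted from the start. Neither CDKN2B nor either start of CDKN2A held any of these letters. A match describes the letters in a window and is not a measured binding site. Whether each window is at the main start of its gene was not checked, so a gene without a match may have one elsewhere. For RB1 the window searched was chr13:48476200-48476499.

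**Figure D1:**
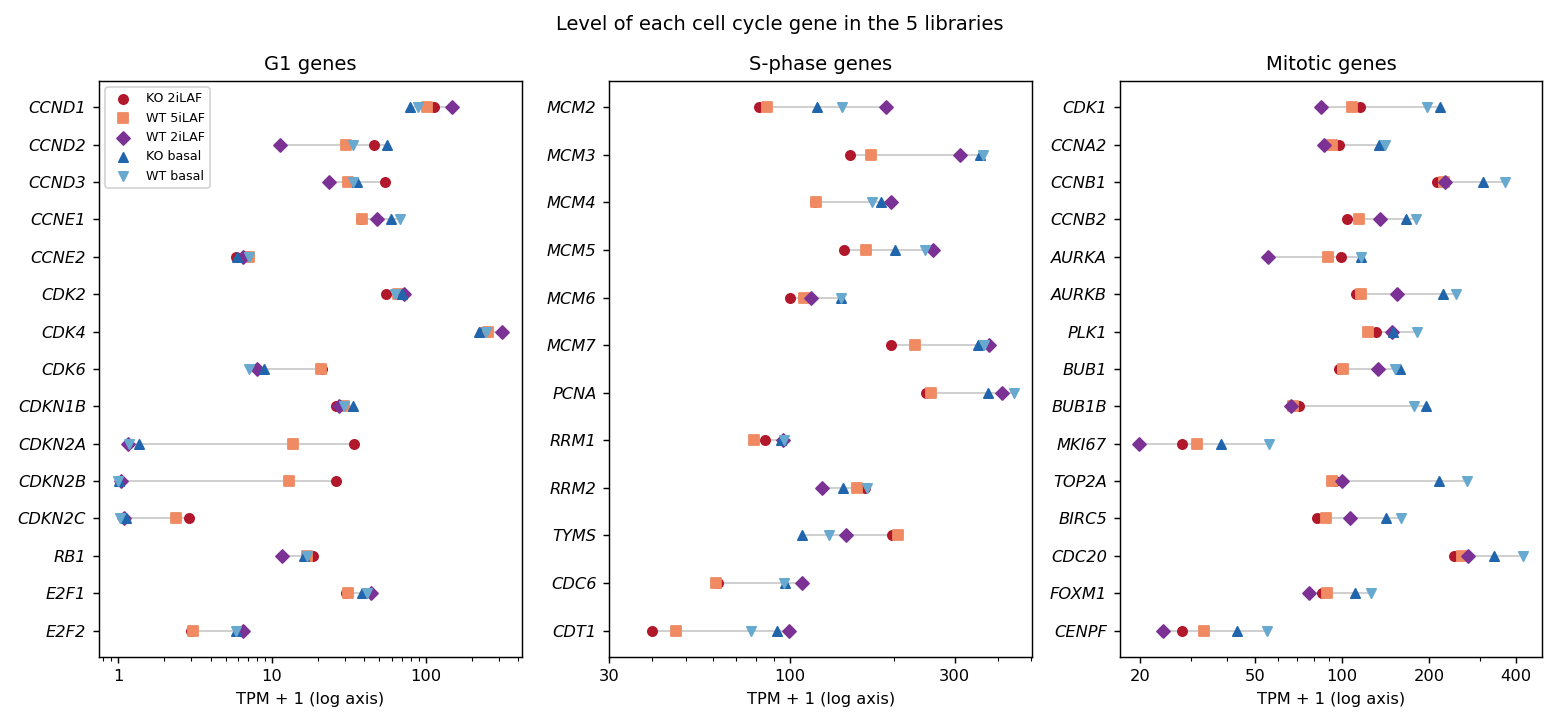
Level of each of the 42 genes as TPM + 1 on a log axis, with 1 point per library and a grey line from the lowest to the highest library. CDKN2A and CDKN2B stood above 11 TPM in KO 2iLAF and WT 5iLAF and below 0.5 TPM in the other libraries, and all 15 mitotic genes had their 2 highest values in the basal libraries.

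Every library held pluripotent transcripts, with 12 of 12 pluripotent markers at or above 1 TPM in each. Their summed level was 3591 TPM in KO 2iLAF, 4095 in WT 5iLAF, 4960 in WT 2iLAF, 6822 in KO basal and 7448 in WT basal. Their median log2 ratio was -0.66 in WT 5iLAF and -0.27 in WT 2iLAF against WT basal, and -0.81 in KO 2iLAF against KO basal. These sums ordered the libraries as the mitotic sums below did, and were lowest in KO 2iLAF and WT 5iLAF, as were the S-phase sums. Their part in those results was not tested. POU5F1 ranged between 1099 TPM in WT 2iLAF and 3350.3 TPM in WT basal. Single markers moved in both directions in WT 2iLAF against WT basal. By 2-fold, 5 of the 12 were lower and 2 higher, against 7.02% and 4.73% of tested genes. NANOG stood at 16.5 TPM in WT 2iLAF against 171 in WT basal, and TDGF1 at 69.25 against 520. SOX2 stood at 324 TPM in WT 2iLAF against 161 in WT basal. The naive label was not carried by every naive gene: DNMT3L stood at 51.4 TPM in KO 2iLAF and 76.4 TPM in WT 5iLAF, whereas KLF17, DPPA5 and ARGFX stayed at or below 0.54 TPM in all 5 libraries. B3GALT5 itself stood at 1.17 TPM in KO 2iLAF against 5.13 TPM in WT 2iLAF, and at 5.98 TPM in KO basal against 9.31 TPM in WT basal. The edited part of the gene is not given in the sources used here, so these levels do not check the knockout. Transcripts of other cell types were unequal between libraries. The 14 granulocyte markers summed to 1073 TPM in KO 2iLAF, where all 14 reached 1 TPM, and to between 5.48 and 25.7 TPM in the others. S100A8, a calcium-binding protein of neutrophils, stood at 299 TPM in KO 2iLAF and was listed at 0 in the other 4. The 13 erythroid markers summed to 227 TPM in KO 2iLAF and 234 TPM in WT basal, and to between 1.95 and 19.1 TPM in the other 3 libraries. Fibroblast and mesenchymal markers without THY1, which primed stem cells also express, summed to 6073 TPM in KO 2iLAF, 2083 in WT 5iLAF, 153 in WT 2iLAF, 105 in KO basal and 83.5 in WT basal. With THY1 the sums were 6110.5 TPM in KO 2iLAF, 2097 in WT 5iLAF, 218 in WT 2iLAF, 859 in KO basal and 799 in WT basal. DCN, which encodes the matrix proteoglycan decorin and was chosen after its values were seen, was at 48.3 TPM in KO 2iLAF, 0.33 in WT 5iLAF and listed at 0 in the others. In bulk RNA, fewer dividing cells and less of a transcript per dividing cell cannot be told apart.

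Among the INK4 inhibitors, CDKN2A and CDKN2B had the widest range of the set on the log2 scale. CDKN2A encodes the CDK inhibitor p16 and, from another first exon, the protein ARF. Its transcripts stood at 33.3 TPM in KO 2iLAF, 12.6 in WT 5iLAF, 0.16 in WT 2iLAF, 0.37 in KO basal and 0.18 in WT basal. The gene-level value adds the transcripts of both products. CDKN2B, the p15 inhibitor encoded next to CDKN2A on chromosome 9, stood at 25.3 TPM in KO 2iLAF, 11.9 in WT 5iLAF, 0.05 in WT 2iLAF, 0.02 in KO basal and 0, as listed, in WT basal. Both genes were thus high in the same 2 libraries, in the same order. CDKN2C, which encodes p18, stayed low, at 1.90 TPM in KO 2iLAF, 1.37 in WT 5iLAF and at most 0.12 in the other 3. CDKN2D, the remaining INK4 gene and not a member of the set, stood at 15.01 TPM in KO 2iLAF, 9.31 in WT 5iLAF, 5.02 in WT 2iLAF, 3.76 in KO basal and 3.78 in WT basal. All 4 INK4 genes together summed to 75.5 TPM in KO 2iLAF, 35.2 in WT 5iLAF, 5.32 in WT 2iLAF, 4.27 in KO basal and 3.99 in WT basal. The summed mesenchymal markers were also highest in KO 2iLAF and next in WT 5iLAF, with or without THY1, but with THY1 their sum was lowest in WT 2iLAF. Their part in the result was not tested.

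Neighbours of the INK4 locus were examined as well. MTAP, a methionine salvage enzyme, stood at 19.8 TPM in KO 2iLAF, 19.1 in WT 5iLAF, 17.1 in WT 2iLAF, 35.3 in KO basal and 36.3 in WT basal. CDKN2B-AS1, a noncoding RNA that overlaps CDKN2A and CDKN2B, stood at 0.46 TPM in KO 2iLAF, 0.25 in WT 5iLAF, 0.15 in WT 2iLAF, 0.09 in KO basal and 0.21 in WT basal. It was low throughout, with the same 2 libraries highest as for CDKN2A and CDKN2B, while MTAP was highest in the basal libraries. Whether strand was used in counting is not given in the sources used here, so reads of overlapping genes may not be separated. These neighbours were chosen for their position, after the values of the INK4 genes had been seen.

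Inhibitors of the other family were mixed. CDKN1B (p27), the member of the set, had a narrow range, at 24.98 TPM in KO 2iLAF, 28.6 in WT 5iLAF, 26.5 in WT 2iLAF, 32.8 in KO basal and 28.6 in WT basal. CDKN1A (p21) stood at 48.8 TPM in KO 2iLAF, 33.0 in WT 5iLAF, 13.9 in WT 2iLAF, 0.41 in KO basal and 5.38 in WT basal. CDKN1C (p57), an imprinted gene, stood at 54.2 TPM in KO 2iLAF, 47.5 in WT 5iLAF, 51.3 in WT 2iLAF, 15.2 in KO basal and 12.2 in WT basal. CDKN1C was therefore high in all 3 libraries from 2iLAF or 5iLAF, while the INK4 genes were high in 2 of them. BTG2, an antiproliferative gene, stood at 47.1 TPM in KO 2iLAF, 49.8 in WT 5iLAF, 7.71 in WT 2iLAF, 1.23 in KO basal and 2.14 in WT basal.

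**Figure D2:**
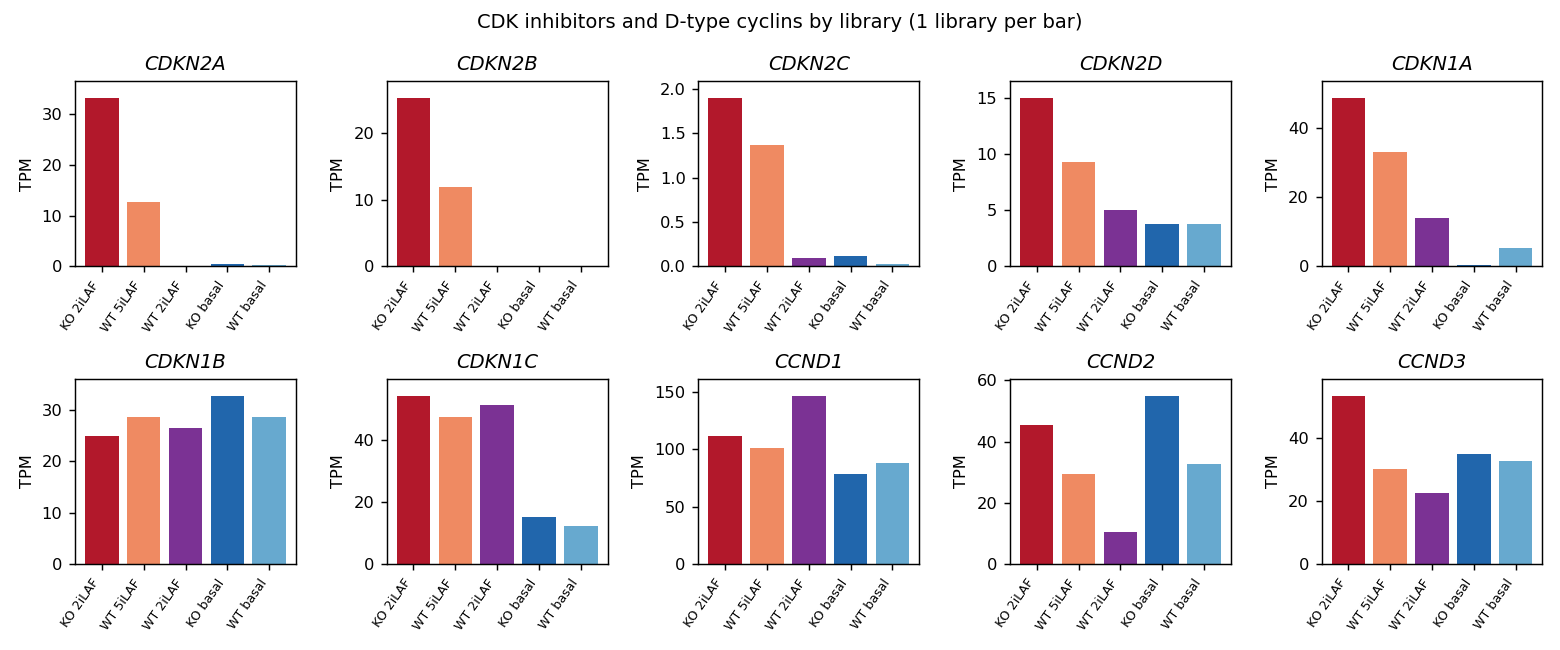
TPM of 7 CDK inhibitor genes and 3 D-type cyclin genes, with 1 bar per library and axes from 0 that differ between panels. CDKN2A, CDKN2B and CDKN2C stood out in KO 2iLAF and WT 5iLAF, CDKN1C in all 3 libraries from 2iLAF or 5iLAF, and CCND2 was lowest in WT 2iLAF.

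The 3 D-type cyclins, which start the G1 programme, ordered the libraries differently. CCND1 stood at 112 TPM in KO 2iLAF, 101 in WT 5iLAF, 147 in WT 2iLAF, 78.5 in KO basal and 88.4 in WT basal. CCND2 stood at 45.4 TPM in KO 2iLAF, 29.4 in WT 5iLAF, 10.3 in WT 2iLAF, 55.01 in KO basal and 32.7 in WT basal. CCND3 stood at 53.4 TPM in KO 2iLAF, 30.2 in WT 5iLAF, 22.5 in WT 2iLAF, 35.0 in KO basal and 32.8 in WT basal. WT 2iLAF thus held the highest CCND1 and the lowest CCND2 and CCND3, KO basal the highest CCND2 and KO 2iLAF the highest CCND3. Of the summed D-type cyclin TPM, CCND1 made up 53.0% in KO 2iLAF, 62.9% in WT 5iLAF, 81.7% in WT 2iLAF, 46.6% in KO basal and 57.4% in WT basal. Their sum varied less, with 210.4 TPM in KO 2iLAF as its highest value and 154 TPM in WT basal as its lowest.

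CDK6, a kinase partner of the D-type cyclins, stood at 20.2 TPM in KO 2iLAF, 19.9 in WT 5iLAF, 7.0 in WT 2iLAF, 7.84 in KO basal and 6.09 in WT basal. CDK6 and the 3 INK4 members were thus the 4 of 15 G1 genes with both KO 2iLAF and WT 5iLAF above the other 3 libraries, an order held by 29.3% of tested genes. CDK4, the other partner, was more abundant throughout, at no more than 314 TPM (WT 2iLAF) and no less than 223 TPM (KO basal), and passed no size rule in any comparison. CCNE1, a cyclin that activates CDK2 at the end of G1, stood at 37.1 TPM in KO 2iLAF, 37.7 in WT 5iLAF, 47.4 in WT 2iLAF, 58.5 in KO basal and 66.7 in WT basal. CCNE2 stayed between 4.82 and 6.11 TPM, CDK2 between 54.3 and 71.6 TPM, and RB1 was highest at 17.4 TPM in KO 2iLAF and lowest at 10.6 TPM in WT 2iLAF. E2F1 and E2F2 are E2F factors that activate transcription. E2F2 stood at 1.99 TPM in KO 2iLAF, 2.06 in WT 5iLAF, 5.49 in WT 2iLAF, 4.84 in KO basal and 4.88 in WT basal. E2F1 had the same 2 libraries lowest, at 29.5 TPM in KO 2iLAF and 30.3 in WT 5iLAF, against 43.1 in WT 2iLAF, 37.6 in KO basal and 40.3 in WT basal.

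S-phase genes separated WT 2iLAF from the 2 libraries recorded as naive. For 10 of 12 S-phase genes, KO 2iLAF and WT 5iLAF were both below the other 3 libraries, and this held with each other scaling tried. The share of all tested genes with that order was 26.9%. The 12 genes summed to 1574 TPM in KO 2iLAF and 1675 in WT 5iLAF, against 2421 in WT 2iLAF, 2248 in KO basal and 2424 in WT basal. The exceptions were TYMS and RRM2, both enzymes that supply nucleotides.

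Within this group, MCM2 to MCM7 form the replicative helicase, the ring that unwinds DNA. MCM3 stood at 148 TPM in KO 2iLAF, 171 in WT 5iLAF, 311 in WT 2iLAF, 354 in KO basal and 360.1 in WT basal. MCM2 stood at 80.3 TPM in KO 2iLAF, 84.8 in WT 5iLAF, 189 in WT 2iLAF, 119 in KO basal and 140.1 in WT basal. MCM7 stood at 196 TPM in KO 2iLAF, 229 in WT 5iLAF, 377 in WT 2iLAF, 349.8 in KO basal and 363 in WT basal. The remaining subunits had the same 2 libraries lowest, with a smaller difference for MCM6, at 98.8 TPM in KO 2iLAF, 109 in WT 5iLAF, 114 in WT 2iLAF, 139.8 in KO basal and 139.5 in WT basal. All 6 subunits together summed to 783 TPM in KO 2iLAF, 876 in WT 5iLAF, 1444 in WT 2iLAF, 1345 in KO basal and 1418 in WT basal.

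CDT1 and CDC6 load that helicase onto origins. CDT1 stood at 38.8 TPM in KO 2iLAF, 45.9 in WT 5iLAF, 98.5 in WT 2iLAF, 90.7 in KO basal and 76.0 in WT basal. CDC6 stood at 61.0 TPM in KO 2iLAF, 60.0 in WT 5iLAF, 107 in WT 2iLAF, 95.8 in KO basal and 95.4 in WT basal. PCNA, the sliding clamp of DNA polymerase, stood at 247 TPM in KO 2iLAF, 256 in WT 5iLAF, 409 in WT 2iLAF, 374 in KO basal and 444 in WT basal. All 3 genes had KO 2iLAF and WT 5iLAF close together and below the rest.

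Nucleotide synthesis genes did not follow. TYMS, thymidylate synthase, was highest in the libraries where the helicase genes were lowest, at 196 TPM in KO 2iLAF, 204 in WT 5iLAF, 145 in WT 2iLAF, 107 in KO basal and 129 in WT basal. ENOSF1, which overlaps TYMS, stayed between 8.09 and 10.2 TPM. RRM2, the regulated subunit of ribonucleotide reductase, stood at 164 TPM in KO 2iLAF, 155 in WT 5iLAF, 122 in WT 2iLAF, 141 in KO basal and 166 in WT basal. RRM1, its large subunit, ranged between 77.9 TPM in WT 5iLAF and 94.95 TPM in WT basal.

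Mitotic genes formed the most even group. In all 15, both basal libraries stood above the other 3 libraries, an order held by 26.4% of all tested genes. With other scalings, or with FPKM, 14 of 15 kept it. PLK1, a kinase of mitotic entry, was nearest to the line, at 131 TPM in KO 2iLAF, 122 in WT 5iLAF and 148.0 in WT 2iLAF, against 149 in KO basal and 181 in WT basal. The 15 genes summed to 1588 TPM in KO 2iLAF, 1615 in WT 5iLAF and 1679 in WT 2iLAF, against 2541 in KO basal and 2836 in WT basal. WT basal held the highest level of 12 of the 15, and KO basal that of CDK1, BUB1 and BUB1B. Across all tested genes, 22.1% were highest in WT basal. With median-ratio or trimmed-mean scaling, the number of all 42 members highest in WT basal was 11, against 17 as deposited.

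The 2 genes with the widest range in this group were BUB1B and TOP2A. BUB1B, a spindle checkpoint kinase, stood at 70.0 TPM in KO 2iLAF, 66.7 in WT 5iLAF, 65.7 in WT 2iLAF, 194 in KO basal and 177 in WT basal. A read-through gene, BUB1B-PAK6, shares its sequence and was listed at 0.44 TPM in KO 2iLAF and 0.45 in WT 5iLAF, against 8.71 in WT 2iLAF, 6.38 in KO basal and 6.53 in WT basal. TOP2A, the topoisomerase that untangles chromosomes, stood at 93.3 TPM in KO 2iLAF, 91.7 in WT 5iLAF, 99.4 in WT 2iLAF, 215 in KO basal and 269 in WT basal. How reads were divided between BUB1B and the read-through gene is an estimate of RSEM. The 3 libraries from 2iLAF or 5iLAF were close to each other for both BUB1B and TOP2A.

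Other mitotic genes differed in which of those 3 libraries was lowest. WT 2iLAF held the lowest level of 7 genes, KO 2iLAF that of 6 and WT 5iLAF that of 2. CDK1, the kinase that drives mitosis, stood at 115 TPM in KO 2iLAF, 107 in WT 5iLAF, 83.3 in WT 2iLAF, 218 in KO basal and 196 in WT basal. AURKA, the centrosomal Aurora kinase, stood at 98.1 TPM in KO 2iLAF, 88.4 in WT 5iLAF, 54.6 in WT 2iLAF, 115.1 in KO basal and 115.5 in WT basal. MKI67, the proliferation antigen Ki-67, stood at 27.1 TPM in KO 2iLAF, 30.5 in WT 5iLAF, 18.9 in WT 2iLAF, 37.3 in KO basal and 54.9 in WT basal. CENPF, a kinetochore protein, stood at 27.1 TPM in KO 2iLAF, 32.3 in WT 5iLAF, 23.0 in WT 2iLAF, 42.4 in KO basal and 54.0 in WT basal. These 4 genes were lowest in WT 2iLAF, as were CCNA2, BUB1B and FOXM1.

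AURKB, the kinase of the chromosomal passenger complex, had the opposite order among those 3, at 111 TPM in KO 2iLAF, 115.0 in WT 5iLAF and 153 in WT 2iLAF, against 223 in KO basal and 246 in WT basal. BIRC5, survivin, of the same complex, stood at 80.7 TPM in KO 2iLAF, 87.3 in WT 5iLAF, 106 in WT 2iLAF, 141 in KO basal and 160 in WT basal. BUB1, another checkpoint kinase, stood at 96.5 TPM in KO 2iLAF, 99.7 in WT 5iLAF, 132 in WT 2iLAF, 157 in KO basal and 152 in WT basal. The B-type cyclins bind CDK1, and CDC20 activates their destruction. CCNB1 stood at 213 TPM in KO 2iLAF, 224 in WT 5iLAF, 226 in WT 2iLAF, 305 in KO basal and 365 in WT basal. CDC20 stood at 242 TPM in KO 2iLAF, 258 in WT 5iLAF, 273 in WT 2iLAF, 334 in KO basal and 422 in WT basal. CCNB2 kept the same order, at 103 TPM in KO 2iLAF, 113 in WT 5iLAF, 134 in WT 2iLAF, 166 in KO basal and 179 in WT basal. CCNA2, the cyclin of S phase and G2, stood at 96.8 TPM in KO 2iLAF, 91.5 in WT 5iLAF, 85.5 in WT 2iLAF, 134 in KO basal and 140.2 in WT basal. FOXM1, a transcription factor of mitotic genes, stood at 84.4 TPM in KO 2iLAF, 87.8 in WT 5iLAF, 76.1 in WT 2iLAF, 109.5 in KO basal and 124.9 in WT basal.

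**Figure D3:**
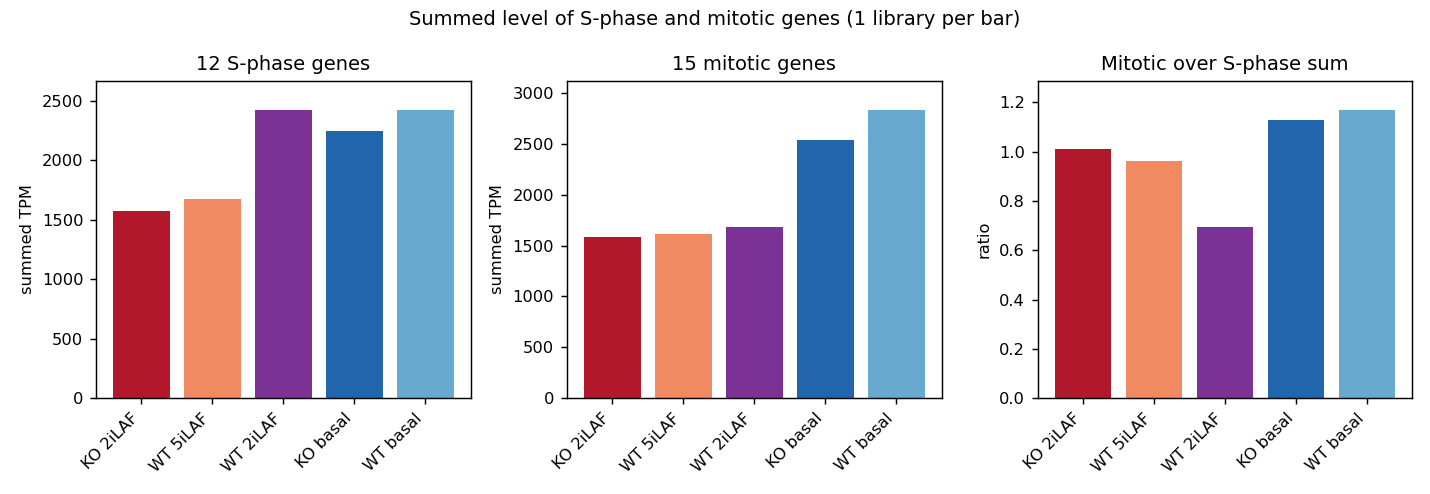
Summed TPM of the 12 S-phase genes (left) and 15 mitotic genes (middle), and the mitotic sum divided by the S-phase sum (right), with 1 bar per library. The mitotic sum was at most 1679 TPM in KO 2iLAF, WT 5iLAF and WT 2iLAF, while the S-phase sum of WT 2iLAF, 2421 TPM, was next to the 2424 TPM of WT basal.

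The ratio of the mitotic to the S-phase sum does not depend on how libraries are scaled. It was 1.01 in KO 2iLAF, 0.964 in WT 5iLAF, 0.693 in WT 2iLAF, 1.13 in KO basal and 1.17 in WT basal. WT 2iLAF thus had the lowest ratio. Geometric means, in which each gene counts equally, gave 0.788 in KO 2iLAF, 0.759 in WT 5iLAF, 0.512 in WT 2iLAF, 0.899 in KO basal and 0.950 in WT basal, with the libraries in the same order.

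**Figure D4:**
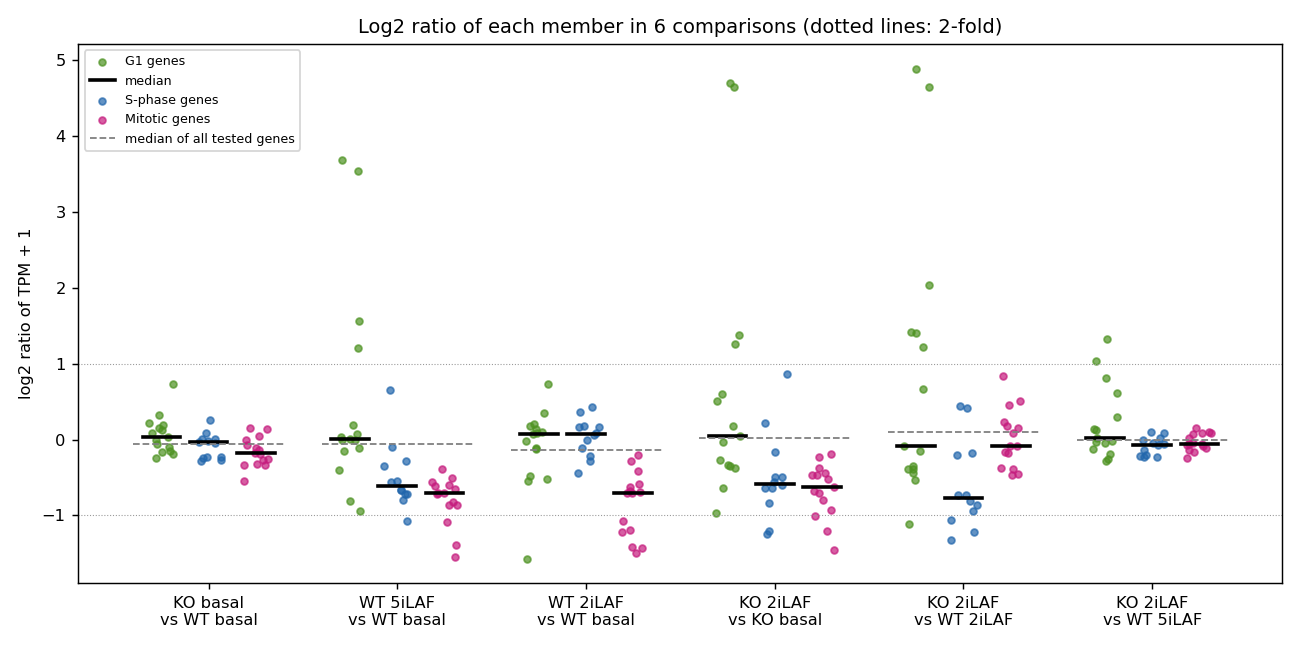
Log2 ratio of TPM + 1 for each member in 6 comparisons, coloured by role, with black bars at the group medians and dashed lines at the median of all tested genes. Mitotic medians were -0.71 in WT 5iLAF and -0.71 in WT 2iLAF against WT basal, whereas S-phase medians were -0.61 and 0.07.

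The knockout was first set against WT with both in basal medium. No member passed 2-fold, where 0.704% of all tested genes were higher and 1.05% lower. CCND2, at 55.01 against 32.7 TPM, was the 1 member of 42 past 1.5-fold, where 2.84% of tested genes were higher and 4.79% lower. Mitotic genes had a median log2 ratio of -0.18, S-phase genes -0.04 and G1 genes 0.03, against -0.06 over all tested genes. The median of S-phase genes changed sign with median-ratio scaling (0.04) and trimmed-mean scaling (0.04). Of the 15 mitotic genes 12 were lower by any amount, as were 58.8% of tested genes. MKI67 had the lowest ratio of the members, at 37.3 TPM in KO basal against 54.9 TPM in WT basal (log2 ratio -0.55). Outside the set, 1 of 29 other G1 regulators was lower by 2-fold and 0 were higher, against the 2-fold shares given above. That gene was CDKN1A, at 0.41 TPM in KO basal against 5.38 TPM in WT basal (log2 ratio -2.18).

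The next comparison set WT cells in 5iLAF against WT cells in basal medium. CDK6, CDKN2A, CDKN2B and CDKN2C were higher by 2-fold and MCM3, AURKB, BUB1B and TOP2A lower, so 4 of 42 members were called in each direction, near the 10.7% and 11.4% of tested genes. CDKN2B has no ratio of its own here, being listed at 0 in WT basal, and its call rests on the pseudocount. At 1.5-fold, 20 members were lower and 5 higher, against 22.1% and 18.5% of tested genes. Those 20 held 12 of 15 mitotic, 6 of 12 S-phase and 2 of 15 G1 genes. All 15 mitotic genes and 11 of 12 S-phase genes were lower by any amount, as were 54.3% of tested genes. Group medians were -0.71 for mitotic, -0.61 for S-phase and 0.01 for G1 genes, against -0.06 over all tested genes. The lowest ratios were those of TOP2A (-1.54) and BUB1B (-1.39).

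In WT cells, 2iLAF was then set against basal medium. CCND2, CDK1, AURKA, BUB1B, MKI67, TOP2A and CENPF were lower by 2-fold and no member was higher, against 7.02% of tested genes lower and 4.73% higher. At 1.5-fold, 13 members were lower and 1, CCND1, higher, against 19.9% and 10.2% of tested genes. Of those 13, 12 were mitotic genes and the other was CCND2. The median log2 ratio was -0.71 for mitotic, 0.07 for S-phase and 0.07 for G1 genes, against -0.13 over all tested genes. Median-ratio scaling brings that last median to 0.00 and gave group medians of -0.52 for mitotic genes and 0.26 for S-phase genes, with 6 mitotic genes lower by 1.5-fold. All 15 mitotic genes were lower in WT 2iLAF by any amount with each scaling, where 60.9% of tested genes were.

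Long transcripts were lower in this comparison. With genes divided into 4 equal bins by transcript length, the median log2 ratio was -0.06 in the bin of shortest and -0.23 in the bin of longest transcripts. MKI67, TOP2A and CENPF belong to the longest bin and had a median of -1.43. The other 12 mitotic genes had a median of -0.69. Less the median of genes of like transcript length, the mitotic median was -0.61, and 9 of 15 mitotic genes were lower by 1.5-fold.

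In KO cells, 2iLAF was likewise set against basal medium. CDK6, CDKN2A, CDKN2B and CDKN2C were higher by 2-fold and MCM3, CDT1, AURKB, BUB1B and TOP2A lower, 4 and 5 of 42 members against 15.9% and 11.8% of tested genes. AURKB, at a log2 ratio of -1.001, lay at the limit. At 1.5-fold, 16 members were lower and 6 higher, against 22.3% and 25.8% of tested genes. All 15 mitotic genes and 10 of 12 S-phase genes were lower by any amount, as were 48.7% of tested genes. The group medians were -0.63 for mitotic, -0.58 for S-phase and 0.05 for G1 genes, against 0.02 over all tested genes. The highest ratios were those of CDKN2B (4.69) and CDKN2A (4.64), both of which were below 0.4 TPM in KO basal.

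**Figure D5:**
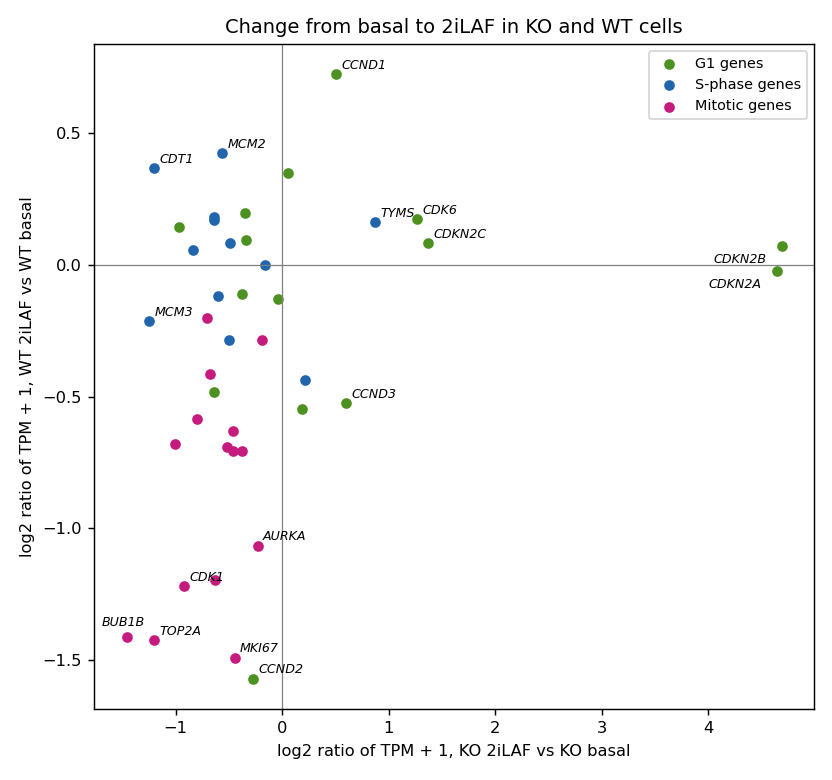
Each point is 1 of the 42 members, with its log2 ratio of TPM + 1 between 2iLAF and basal medium in KO cells (horizontal) and in WT cells (vertical), coloured by role. All mitotic genes lay below 0 on both axes, while most S-phase genes lay left of 0 in KO cells and near or above 0 in WT cells; CDKN2B is plotted with the pseudocount, being listed at 0 in WT basal.

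The KO and WT libraries were then compared within 2iLAF. CCND2, CCND3, CDK6, CDKN2A, CDKN2B and CDKN2C were higher in KO by 2-fold, and E2F2, MCM2, MCM3 and CDT1 lower, 6 and 4 of 42 members against 16.6% and 10.8% of tested genes. CDT1 had the lowest ratio, at 38.8 TPM in KO against 98.5 TPM in WT (log2 ratio -1.32). Of 12 S-phase genes 10 were lower in KO by any amount, as were 44.4% of tested genes, and 8 by 1.5-fold, as were 19.3%. The mitotic members divided, with 7 higher and 8 lower, and 1, AURKA, past 1.5-fold as higher, where 27.6% of tested genes were. A longer list of mitotic genes, given below, leaned to higher in KO. The medians were -0.77 for S-phase, -0.09 for mitotic and -0.08 for G1 genes, against 0.10 over all tested genes. Long transcripts were higher here, with a median log2 ratio of 0.01 in the bin of shortest and 0.20 in the bin of longest transcripts. Among G1 genes, CCND2, CDK6 and E2F2 belong to the longest bin. Less the median of genes of like transcript length, 6 G1 genes were higher by 2-fold and 1 lower. The summed granulocyte, erythroid and mesenchymal markers given above were higher in KO 2iLAF than in WT 2iLAF, and their part in these differences was not tested.

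KO cells in 2iLAF were set against WT cells in 5iLAF, the other library recorded as naive. CDKN2A (33.3 against 12.6 TPM) and CDKN2B (25.3 against 11.9 TPM) were higher by 2-fold and no member was lower, where 4.90% of tested genes were higher and 1.03% lower. CCND2 (45.4 against 29.4 TPM) and CCND3 (53.4 against 30.2 TPM) were also higher by 1.5-fold. No S-phase or mitotic gene passed 1.5-fold, where 9.09% of tested genes were higher and 4.61% lower. By any amount, 9 of 12 S-phase and 9 of 15 mitotic genes were lower, as were 49.7% of tested genes. Their log2 ratios lay between -0.25 for CENPF and 0.15 for AURKA, with medians of -0.07 for S-phase and -0.05 for mitotic genes, against 0.00 over all tested genes.

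Other genes of the pathway, taken from longer lists written with earlier results of these data known, were counted in the same way. Of 64 other mitotic genes, 53 were lower in WT 5iLAF than in WT basal by any amount and 30 by 1.5-fold, 62 and 40 in WT 2iLAF against WT basal, and 49 and 18 in KO 2iLAF against KO basal. The shares of all tested genes lower by any amount and by 1.5-fold were 54.3% and 22.1%, 60.9% and 19.9%, and 48.7% and 22.3% in those comparisons. Median log2 ratios of the 64 genes were -0.53, -0.78 and -0.31, so that in KO 2iLAF they lay nearer to 0 than the -0.63 of the mitotic members. In KO 2iLAF against WT 2iLAF, 45 of the 64 were higher by any amount, as were 8691 of 15761 tested genes. By 1.5-fold, 18 were higher and 3 lower, against 27.6% and 19.3% of tested genes. Their median log2 ratio there was 0.24, against 0.10 over all tested genes and -0.09 for the mitotic members. CENPE, a kinetochore motor with a long transcript, stood at 18.4 TPM in KO 2iLAF, 16.6 in WT 5iLAF, 5.72 in WT 2iLAF, 18.6 in KO basal and 25.4 in WT basal. CENPA, the centromeric histone, was also lowest in WT 2iLAF, at 39.5 TPM in KO 2iLAF, 42.8 in WT 5iLAF, 13.97 in WT 2iLAF, 33.5 in KO basal and 36.5 in WT basal. ASPM, a spindle pole protein, stood at 13.3 TPM in KO 2iLAF, 12.3 in WT 5iLAF, 7.41 in WT 2iLAF, 24.5 in KO basal and 27.1 in WT basal. CDC25B, a phosphatase that activates CDK1, went against the group, at 77.6 TPM in KO 2iLAF, 86.3 in WT 5iLAF, 24.9 in WT 2iLAF, 33.9 in KO basal and 34.5 in WT basal.

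Of 50 other replication genes, 35 were lower in WT 5iLAF against WT basal by any amount and 15 by 1.5-fold, 33 and 3 in WT 2iLAF, and 37 and 13 in KO 2iLAF against KO basal. Against the same shares of all tested genes, the counts at 1.5-fold were near the background in KO 2iLAF and below it in WT 2iLAF. Median log2 ratios were -0.29, -0.06 and -0.26, nearer to 0 than the S-phase members in WT 5iLAF (-0.61) and KO 2iLAF (-0.58). PRIM1, the catalytic subunit of DNA primase, stood at 19.2 TPM in KO 2iLAF, 23.3 in WT 5iLAF, 71.6 in WT 2iLAF, 71.0 in KO basal and 72.3 in WT basal. CDC7, a kinase that fires origins, stood at 23.2 TPM in KO 2iLAF, 25.3 in WT 5iLAF, 42.9 in WT 2iLAF, 52.4 in KO basal and 52.8 in WT basal. Both genes had KO 2iLAF and WT 5iLAF lowest. UHRF1, which maintains DNA methylation at replication, did not, at 55.9 TPM in KO 2iLAF, 50 in WT 5iLAF, 56.8 in WT 2iLAF, 27.7 in KO basal and 51.8 in WT basal.

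Among 16 checkpoint and DNA damage genes, the numbers past 2-fold were 1 higher and 1 lower in WT 5iLAF against WT basal, 1 and 0 in WT 2iLAF, and 2 and 1 in KO 2iLAF against KO basal. These counts were near the shares of all tested genes, which were 10.7% and 11.4%, 4.73% and 7.02%, and 15.9% and 11.8%. CHEK2, a checkpoint kinase, stood at 32.3 TPM in KO 2iLAF, 39.2 in WT 5iLAF, 55.2 in WT 2iLAF, 104 in KO basal and 102 in WT basal. GADD45A, a stress response gene, was highest where CHEK2 was lowest, at 40.0 TPM in KO 2iLAF, 28.8 in WT 5iLAF, 27.0 in WT 2iLAF, 15.2 in KO basal and 11.4 in WT basal. MDM2, a ubiquitin ligase, stood at 18.2 TPM in KO 2iLAF, 16.6 in WT 5iLAF, 16.5 in WT 2iLAF, 8.40 in KO basal and 10.8 in WT basal.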

How the data were processed

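Poly(A)-selected RNA of 5 H9 libraries was sequenced from a stranded TruSeq kit, per the labels' protocols. The submitters' processing notes name Trimmomatic 0.39, Bowtie2 2.3.4.1 and RSEM 1.2.28 with build hg19. Which annotation and strand setting RSEM used is not given in the sources used here. TPM values (abundances scaled to one total) and FPKM values (fragments scaled by length and library) were deposited in 1 table, per the file headers. Its 18 further columns were empty. Read depth is unknown, since no count is given and no step of whole reads was found: at most 6.66% of genes at 0.15 to 0.6 FPKM shared a ratio within 0.05 on the log2 scale.

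Log2 ratios used a pseudocount of 1 TPM and genes reaching 1 TPM in at least 1 library. No test was possible with 1 library per group. The alternatives changed the pseudocount to 0.1 or 5, dropped the filter or raised it to 5 TPM, replaced TPM by FPKM, or rescaled libraries by median ratios or trimmed means. An adjustment for transcript length (GENCODE release 29, 20 bins) was added after seeing the data. Members and lists were chosen with earlier results of these data known. All members are named, with up to 4 genes of each further list by range among those reaching 10 TPM, plus CDKN1A and CDKN1C, except that some are not reported here. Promoters and chromosomes came from RefSeq tables of GRCh38.p14, matched by symbol. The calculations, made with Python 3.11.15, numpy 2.4.6 and pandas 2.3.3, were tested on simulated data.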

Additional observations from a re-analysis of the deposited data

Results flagged for a closer look

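The log2 ratio of 2iLAF over basal medium had opposite signs in KO and WT cells for 7 of 42 members (16.7%), with at least 1 of the genotypes past 1.5-fold. Of all 15761 tested genes 23.6% met the same rule, so the share among the members was below the background. The difference between genotypes was not tested, since each value rests on 1 library per medium. For CDT1 the log2 ratio was -1.20 in KO and 0.37 in WT, for MCM7 -0.83 and 0.06, for CDC6 -0.64 and 0.17, for MCM4 -0.63 and 0.18, and for E2F2 -0.97 and 0.14. These 5 genes were lower in KO cells and higher in WT cells. CCND3 had the opposite signs, 0.60 in KO and -0.52 in WT. CDKN2A had 4.64 in KO and -0.02 in WT, where it stood at 0.16 TPM in 2iLAF and 0.18 TPM in basal medium.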

How the results depend on the processing

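No paired analysis was possible because each group holds 1 library and the labels carry no replicate numbers; for the same reason no library could be left out. Values were the same with no filter. The filter of 5 TPM removed CDKN2C, which took 1 from each count of higher members that held it, and the G1 median of KO 2iLAF against WT 5iLAF was -0.0016, against 0.02. Between KO basal and WT basal, the median of all members was 0.0111 with median-ratio scaling and 0.0091 with trimmed-mean scaling, against -0.07 as deposited, and that of S-phase members was 0.0404, 0.0383 and 0.0166 with those scalings and the length adjustment, against -0.04. The number higher by 1.5-fold was 3 with a pseudocount of 0.1, against 1. Between WT 2iLAF and WT basal, median-ratio and trimmed-mean scaling gave S-phase medians of 0.26 and 0.23, mitotic medians of -0.52 and -0.55, and 7 and 7 members lower by 1.5-fold against 13; 2 were higher with median-ratio scaling, against 1. The length adjustment gave medians of 0.18 for G1 and 0.19 for S-phase members. The members highest in WT basal were 11 and 11 with both scalings, against 17, and 7 were lowest in WT 5iLAF with median-ratio scaling, against 4. With a pseudocount of 5, 2 members were higher in KO 2iLAF than in KO basal, against 4, and 1 than in WT 5iLAF, against 2. FPKM gave 1 in that last comparison, and a median of -0.0919, against -0.04. CDKN2C lost its call with a pseudocount of 5, being at most 1.90 TPM. With that pseudocount, CDK6 also lost its call in KO 2iLAF against KO basal, and CDKN2B lost its call in KO 2iLAF against WT 5iLAF. Unknown depth limits all genes below a few TPM.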
